A study of Oryctolagus cuniculus with 16 samples.

Results

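CIART, the circadian associated repressor of transcription, is 1 of 13788 named genes in the RNA-seq counts of cerebral artery wall from rabbits, and it was followed across all 16 libraries. It was chosen by its counts in these same libraries, which were low in ligated rabbits, so its own change with ligation is described without a test. Of the 13 other clock genes chosen for comparison, 11 were in the count matrix, and PER3 and DBP were not analysed here. The comparison asks whether CIART differed alone or together with the rest of the clock.

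The tissue came from 4 female New Zealand white rabbits, for which no genetic change, treatment or age is given beyond what follows. Rabbits 5 and 6 had both common carotid arteries ligated, which raises flow through the basilar artery (BA) and at its end, the basilar terminus (BT). Rabbits 3 and 4 had sham surgery and kept normal flow. All were examined 24 h after surgery and were perfused with heparinized saline. The intima, which holds the endothelium, and the media, which holds the vascular smooth muscle, were laser-microdissected from the BA and the BT, giving 4 tissues with 2 sham and 2 ligated libraries each. Each library pooled the sections of 1 rabbit, so the 4 tissue comparisons rest on the same 4 rabbits and are not independent of each other. Where values for the tissues are listed together, the intima of the BA and BT comes before the media of the BA and BT. The hour of day at which tissue was taken is not given in the sources used here. Flow, rabbit and hour of collection therefore cannot be told apart.

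In the molecular clock, CLOCK and ARNTL (also called BMAL1) form a pair that binds E-box elements and switches on the genes of its own repressors. The PER and CRY proteins block the pair, NR1D1 and NR1D2 (the REV-ERB receptors) repress ARNTL, and CIART, itself switched on through E-boxes, binds ARNTL and lowers the activity of the pair. TEF and HLF are transcription factors of the output arm, and ARNTL peaks at nearly the opposite time of day from NR1D1, TEF and CIART in many tissues. Endothelial and smooth muscle cells of arteries both run this clock.

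Intimal libraries held 5211886 to 17686105 counts on named genes, and medial libraries held 2154863 to 11219236. Levels are given as CPM, counts scaled to a common library size, after TMM scaling of all 16 libraries, a method that corrects for a few genes taking up much of a library. Where a library held no count of a gene, up to 3 counts were allowed for, which corresponds to 0.169 to 1.58 CPM in these libraries and covers counting error only. Replicate libraries differed by more than counting error in each group, with a chi-square per degree of freedom of 22.5 to 456.

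CIART was abundant enough to be measured in every sham library, and was low or without a count in every ligated library. In the sham rabbits its level ran from 21.5 to 72.3 CPM with a median of 39.9 CPM. The ligated rabbits held 0 to 7.24 CPM with a median of 2.84 CPM. The highest ligated library thus stayed below the lowest sham library, across layers, locations and rabbits. In bulk tissue, fewer cells that express a gene and less RNA per cell cannot be told apart.

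**Figure D1:**
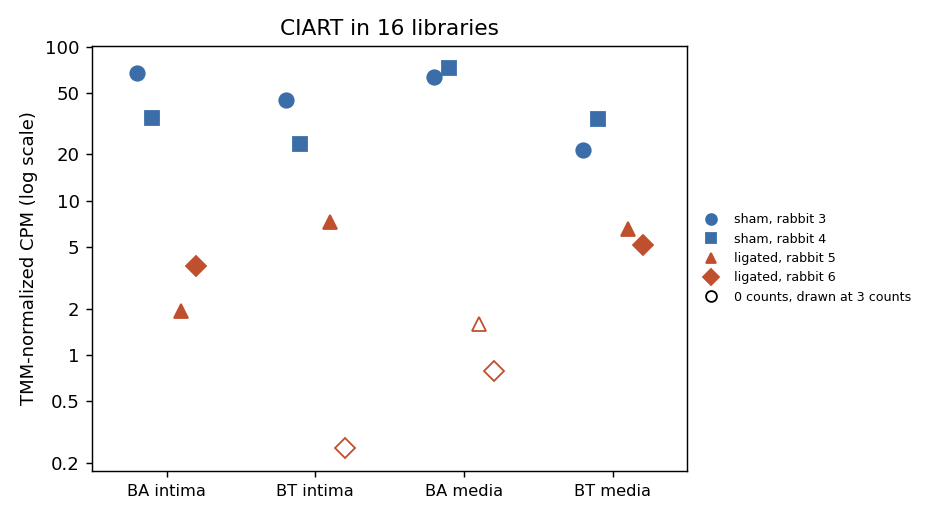
TMM-normalized CPM of CIART (log scale) in each of the 16 libraries, by tissue on the horizontal axis, with sham rabbits in blue and ligated rabbits in red. Open symbols mark the 3 libraries with no CIART count, drawn at the CPM of 3 counts. All 8 sham libraries lie at 21.5 CPM or above and all 8 ligated libraries at 7.24 CPM or below.

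In the BA intima, sham rabbits 3 and 4 had 68.0 and 34.5 CPM of CIART (1210 and 462 counts), and ligated rabbits 5 and 6 had 1.92 and 3.77 CPM (18 and 22 counts). The means were 51.2 ± 23.7 and 2.84 ± 1.31 CPM (SD, n = 2), 18.0-fold lower after ligation. The fitted log2 fold change was -4.20 (SE 0.81). Both ligated libraries lay below both sham libraries, although the sham libraries also differed from each other.

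In the BT intima, the sham libraries held 45.3 and 23.5 CPM of CIART (671 and 160 counts). Ligated rabbit 5 held 7.24 CPM (84 counts), while rabbit 6 had no count, where the mean sham level would have given 418 counts by depth alone. The group means were 34.4 ± 15.4 and 3.62 ± 5.12 CPM (SD, n = 2), 9.50-fold lower after ligation, with a fitted log2 fold change of -3.22 (SE 1.80). Here the size of the change turned on which ligated library was used, and the ratio of means on the log2 scale was -2.25 without rabbit 6 and -7.12, read against 3 counts, without rabbit 5.

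In the BA media, the mean sham level was the highest of any group at 68.1 CPM, from 64.0 and 72.3 CPM of CIART (677 and 441 counts). Neither ligated library held a CIART count. At the mean sham level, 129 and 260 counts would have been found in rabbits 5 and 6, by depth alone. The library of rabbit 5 was the shallowest of all. Replicates of this amplified material could also differ in whether a gene had counts at all, and CRY1, for example, had 104 counts in the BA intima of sham rabbit 3 and none in that of sham rabbit 4. Read against 3 counts per library, CIART was at least 57.5-fold lower in the ligated BA media (a bound of 43.0 to 86.6 with 1 library left out, the highest without rabbit 5).

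In the BT media, sham rabbits 3 and 4 held 21.5 and 34.2 CPM of CIART (74 and 212 counts), and ligated rabbits 5 and 6 held 6.55 and 5.14 CPM (21 and 44 counts). The means were 27.9 ± 9.03 and 5.84 ± 0.994 CPM (SD, n = 2), 4.77-fold lower after ligation, with a fitted log2 fold change of -2.25 (SE 0.77). By group means this tissue had both the lowest sham level and the highest ligated level, although the highest single ligated library was in the BT intima.

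Ordered by mean, the 8 groups ran from BA media, BA intima, BT intima and BT media of sham rabbits down to BT media, BT intima, BA intima and BA media of ligated rabbits. The order of tissues in the ligated rabbits was the exact reverse of that in the sham rabbits. Within the sham rabbits, the BA media and BA intima overlapped, as did the BA intima and BT intima and the BT intima and BT media. Of the ligated groups, the BT media lay within the range of the BT intima, as did the BA intima, so neighbours in this order did not separate beyond their spread except where sham gave way to ligated and where the BA media held no count.

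The layers and locations of CIART are also given as a description, since it was chosen with all of these counts in view. CIART had a mean of 23.0 ± 24.6 CPM in the intima and 25.5 ± 28.9 CPM in the media (SD, n = 8), and was higher in the intima in 5 of the 8 pairs that share rabbit and location. In the sham rabbits alone, the fitted log2 difference of CIART, intima minus media, was -0.05 (SE 0.81). CIART averaged 17.9 CPM in the BT and 30.5 CPM in the BA and was higher in the BT in 3 of 8 pairs. In the sham rabbits its log2 difference, BT minus BA, was -0.93 (SE 0.81). The fitted log2 differences over all 16 libraries, 1.70 for intima minus media and 1.78 for BT minus BA, were opposite in sign to the means. They include the ligated BA media, which held no count, so they give neither a size nor a direction.

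CIART was not alone among the clock genes in separating by flow group. NR1D2 and TEF, like CIART, had every ligated library below every sham library, and ARNTL had every ligated library above every sham library. Of 10091 genes with a mean above 1 CPM in some group, 76 (0.753%) had all 8 ligated libraries below all 8 sham libraries, and 114 (1.13%) had them all above. The libraries of a flow group came from 2 rabbits, so these 8 against 8 libraries are not 8 independent animals.

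**Figure D2:**
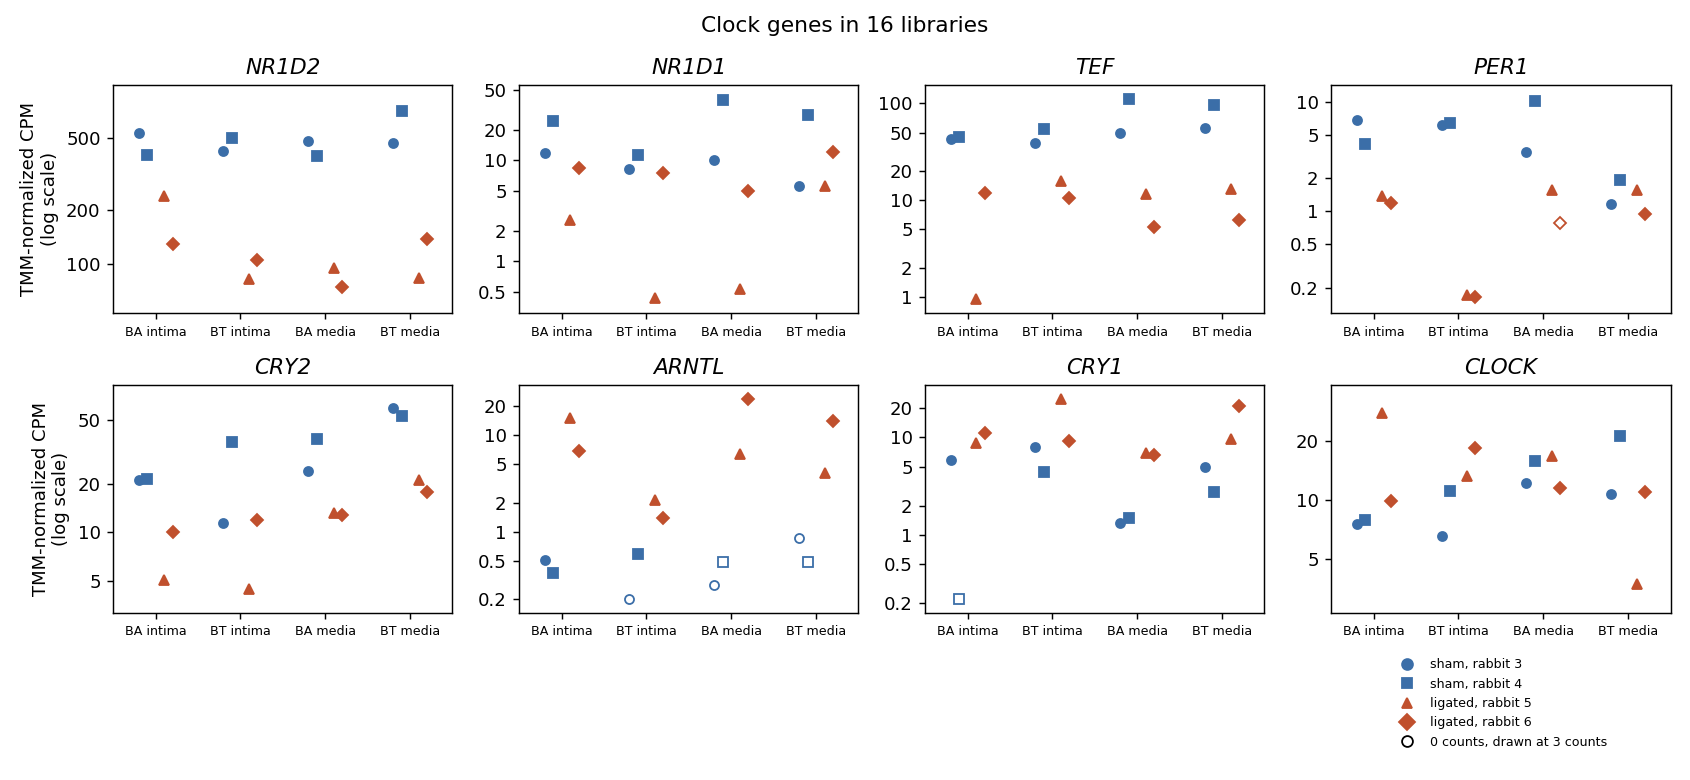
TMM-normalized CPM (log scale, a separate scale in each panel) of 8 clock genes in the 16 libraries, sham in blue and ligated in red, with open symbols for libraries without a count, drawn at the CPM of 3 counts. NR1D2 and TEF lie lower in all ligated than in all sham libraries, ARNTL lies higher, and CLOCK overlaps between the flow groups in the media.

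NR1D2, the REV-ERB beta receptor, repressor of ARNTL, gave the most precise values. Its level in the BA media was 484 and 402 CPM in sham rabbits 3 and 4 and 95.0 and 75 CPM in ligated rabbits 5 and 6. It fell there by 2.36 on the log2 scale (SE 0.35, q = 0.0282, edgeR's quasi-likelihood test with Benjamini-Hochberg adjustment), 5.21-fold. Of 8817 genes tested in the BA media, 33 were called lower (0.374%). The NR1D2 call did not hold when any 1 library was left out (q = 0.174, 0.221, 0.402 and 0.506 by edgeR without rabbits 3, 4, 5 and 6), nor with all 4 rabbits in edgeR's version 4 form (q = 0.0741), although the log2 fold change stayed between -2.20 and -2.52. A fit without 1 library leaves 1 rabbit in an arm, takes it to vary like the other arm, and passed 0 to 2 of all genes in the BA media.

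NR1D2 in the BT media held 469 and 708 CPM in sham and 84.2 and 139 CPM in ligated rabbits. It fell by 2.39 on the log2 scale (SE 0.37, q = 0.00673 by edgeR), 5.28-fold, where 104 of 8803 genes were called lower (1.18%). Without rabbit 5 and without rabbit 6 the q-value by edgeR was 0.0609 and 0.0535. The medial decrease of NR1D2 was thus of like size at both locations.

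In the intima the NR1D2 groups also did not overlap but did not pass the test by edgeR. DESeq2 called NR1D2 lower in the BT intima, where it called 4.92% of genes lower, and did not call it in the BA intima. The BT intima held 425 and 506 CPM of NR1D2 in sham and 82.7 and 106 CPM in ligated rabbits (log2 fold change -2.31, SE 0.40, q = 0.247 by edgeR). The BA intima held 536 and 404 CPM of it in sham and 239 and 129 CPM in ligated rabbits (log2 fold change -1.36, SE 0.49, q = 0.769 by edgeR). No gene passed q < 0.05 in either intimal comparison (0% of 8968 in the BA and 0% of 9276 in the BT), with 532 and 1080 genes at an unadjusted p under 0.05 by edgeR and 122 and 616 genes past the threshold by DESeq2.

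NR1D1, the REV-ERB alpha receptor, was lower by its mean in all 4 tissues and passed the test in none, and in the BT media the fitted log2 fold change turned to 0.70 without sham rabbit 4. The BA media held 10.0 and 39.8 CPM of it in sham and 0.528 and 4.98 CPM in ligated rabbits (log2 fold change -3.04, SE 1.19, q = 0.315 by edgeR). Libraries of a group differed widely there, with means of 24.9 ± 21.1 and 2.76 ± 3.15 CPM (SD, n = 2). The NR1D1 groups overlapped in the BT media, with 5.51 and 28.4 CPM in sham and 5.61 and 12 CPM in ligated rabbits (q = 0.677 by edgeR). The intimal values of NR1D1 did not overlap between the groups. They were 11.7 and 24.5 against 2.56 and 8.39 CPM for the BA and 8.30 and 11.3 against 0.431 and 7.48 CPM for the BT.

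TEF, a PAR bZIP transcription factor that acts on D-box elements, was the other output gene with enough counts. The BT media held 55.7 and 97.3 CPM of it in sham rabbits and 13.1 and 6.31 CPM in ligated rabbits. It fell by 3.0 on the log2 scale (SE 0.60, q = 0.0255 by edgeR), 7.89-fold (5.75-fold to 12.1-fold with 1 rabbit left out, the highest without rabbit 5), and this call did not hold without rabbit 5 (q = 0.0563 by edgeR) or without rabbit 6 (q = 0.263 by edgeR), nor with all rabbits in the 16-library fit (q = 0.208 by edgeR). TEF and NR1D2 were the comparator genes called in the BT media, and NR1D2 alone was called in the BA media.

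TEF in the BA media held 49.1 and 111 CPM in sham and 11.6 and 5.25 CPM in ligated rabbits (log2 fold change -3.25, SE 0.68, q = 0.074 by edgeR). Libraries of a group again differed widely, with means of 80.1 ± 43.7 and 8.43 ± 4.5 CPM (SD, n = 2). DESeq2 called TEF lower in the BA media, where it called 3.22% of genes lower. The BA intima held 42.6 and 45.4 CPM of TEF in sham against 0.959 and 12 CPM in ligated rabbits. The BT intima held 38.7 and 53.9 against 16.0 and 10.6 CPM of it. All 4 tissues thus separated by flow group, as they did for CIART, but the intimal differences of TEF did not pass the test (q = 0.794 in the BA and 0.341 in the BT by edgeR). HLF, the related factor, held 0 to 15 counts per library and could not be compared.

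Among the repressors of the PER and CRY families, PER1 was low throughout. The BA intima held 6.85 and 4.10 CPM of PER1 in sham rabbits and 1.39 and 1.20 CPM in ligated rabbits (122, 55, 13 and 7 counts, q = 0.885 by edgeR). The BT intima held 90 and 44 counts of it in sham and 2 and 2 counts in ligated rabbits (q = 0.363 by edgeR, 0.0293 by DESeq2), and the BA media 37 and 62 against 3 and 0 counts (q = 0.529 by edgeR). With 4, 12, 5 and 8 counts in the BT media, PER1 did not separate by flow there. PER2 held 0 to 15 counts per library, too few for a comparison.

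CRY1 and CRY2, the cryptochromes, lay on opposite sides of 0 by their fitted change with ligation, and neither passed the test in any tissue. CRY2 in the BT media held 59.5 and 53.3 CPM in sham and 21.2 and 17.9 CPM in ligated rabbits (log2 fold change -1.52, SE 0.53, q = 0.178 by edgeR). It was 24.2 and 38.2 against 13.2 and 12.9 CPM in the BA media and 21.3 and 21.5 against 5.01 and 10.1 CPM in the BA intima. The CRY2 groups overlapped in the BT intima, at 11.4 and 36.5 against 4.40 and 12 CPM. CRY2 was higher in the media than in the intima of the same rabbit and location in 8 of 8 pairs (log2 intima minus media -0.95, SE 0.35, q = 0.12 by edgeR), a difference that did not pass the test, where 721 of 10091 genes passed for layer (7.14%). With rabbit also fitted as a block, the CRY2 difference was -1.03 (q = 0.0756 by edgeR), where 906 genes passed. No comparator tested passed for layer or for location by edgeR (HLF was not tested), and for location 1 gene of 10091 did (0.00991%), the homeobox gene ALX4. PER2 for layer (SE 3846.92) and location (SE 3399.8) and ARNTL for location (SE 1462.55) could not be judged. Their fits include groups without a count.

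CRY1 was higher in both ligated than in both sham rabbits in each of the 4 tissues. The BA media held 1.32 and 1.48 CPM of it in sham and 6.86 and 6.56 CPM in ligated rabbits (log2 fold change 2.27, SE 1.5, q = 0.544 by edgeR). The BT media held 4.93 and 2.75 against 9.66 and 20.7 CPM of it (log2 fold change 2.00, SE 1.00, q = 0.358 by edgeR). The intimal CRY1 values were 5.84 and 0 against 8.85 and 11.0 CPM for the BA and 7.90 and 4.40 against 24.7 and 9.13 CPM for the BT. Of 7938 genes tested in all 4 tissues, 292 (3.68%) had both ligated above both sham libraries in each tissue, among them CRY1 and ARNTL, and 246 (3.10%) had both below in each, among them CIART, NR1D2 and TEF.

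ARNTL, the activator that CIART binds, lay in the opposite direction to CIART in every tissue. The BA media had no ARNTL count in either sham rabbit and 12 and 91 counts (6.33 and 23.9 CPM) in ligated rabbits 5 and 6, at least 39.0-fold higher when sham is read as 3 counts per library (q = 0.0775 by edgeR). The BT media likewise had no count in either sham rabbit and 13 and 121 counts (4.05 and 14.1 CPM) in the ligated rabbits, at least 13.4-fold higher (q = 0.0884 by edgeR). Without rabbit 6, which held the most ARNTL, these bounds were 16.3-fold and 5.98-fold, and without rabbit 5 they were 61.6-fold and 20.9-fold. Neither medial difference of ARNTL passed the threshold with edgeR.

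In the BA intima, ARNTL held 0.506 and 0.373 CPM in sham (9 and 5 counts) and 15 and 6.85 CPM in ligated rabbits (141 and 40 counts). That is 24.9-fold higher (15.6-fold without rabbit 5), with a fitted log2 fold change of 4.60 (SE 1.48, q = 0.731 by edgeR). DESeq2 called ARNTL higher in the BA intima, where it called 0.833% of genes higher. The BT intima held 0 and 4 counts of ARNTL in sham and 25 and 17 counts in ligated rabbits (q = 0.741 by edgeR). Over all tissues the sham libraries held at most 0.587 CPM of ARNTL and the ligated libraries at least 1.4 CPM, with no overlap.

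CLOCK, the partner of ARNTL, did not follow a common direction. It held 7.53 and 7.91 CPM in sham against 27.7 and 9.93 CPM in ligated rabbits in the BA intima and 6.55 and 11.2 against 13.3 and 18.5 CPM in the BT intima. The media gave 12.3 and 15.9 against 16.9 and 11.5 CPM of CLOCK in the BA and 10.7 and 21.3 against 3.74 and 11.0 CPM in the BT, overlapping in both. Its log2 fold changes were 1.29, 0.85, 0.04 and -1.10 in the 4 tissues (q = 0.871, 0.731, 0.992 and 0.597 by edgeR), and the value near 0 changed sign to -0.11 when libraries were scaled by size alone. NPAS2, which can take the place of CLOCK in the pair, held 0 to 10 counts in sham libraries and 0 to 20 in ligated libraries other than the BT media of rabbit 6, which held 62.

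**Figure D3:**
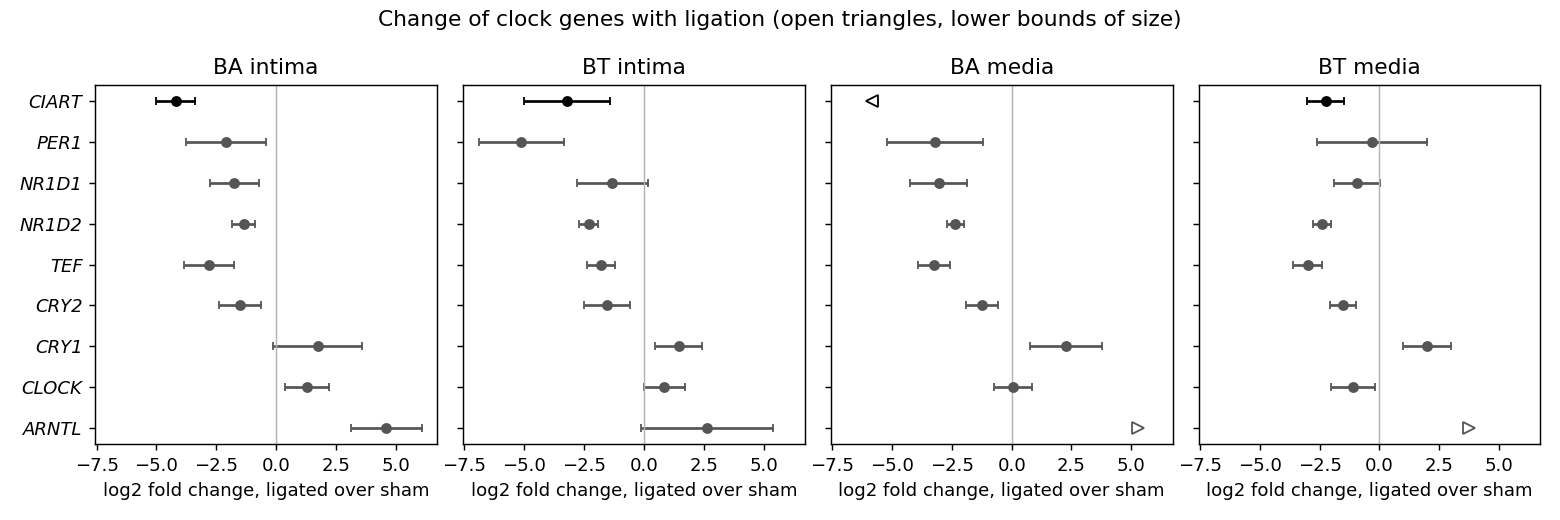
Log2 fold change, ligated over sham, of CIART (black) and 8 clock genes (grey) in the 4 tissues, as points with bars of ± 1 SE from the edgeR fit. Open triangles mark lower bounds of the size of a change, where both libraries of a group held no count. CIART, PER1, NR1D1, NR1D2, TEF and CRY2 lie at or left of 0 in all tissues, CRY1 and ARNTL lie right of it, and CLOCK lies on either side.

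Counted over the comparators that could be tested, 5 of 8 had both ligated below both sham libraries in the BA intima and 3 had them above, where 19.9% and 15.6% of all genes tested did. In the BT intima 4 of 9 lay below and 3 above (25.6% and 20.3% of all genes), in the BA media 5 and 2 of 9 (26.1% and 21.0%), and in the BT media 3 and 2 of 9 (23.1% and 25.5%). The median log2 fold change of the comparators was -1.44, -1.32, -1.23 and -0.93 in the 4 tissues, against -0.10, -0.13, -0.14 and 0.03 over all genes. With these counts of animals, 0, 0, 1 and 2 of the comparators passed q < 0.05 by edgeR, where 0%, 0%, 0.805% and 2.34% of all genes did. All of these calls were lower, and no comparator was called higher, where 0.431% and 1.16% of all genes were in the BA media and BT media. DESeq2 called 0, 2, 2 and 2 comparators lower, where it called 0.707%, 4.92%, 3.22% and 4.07% of all genes lower. It called 1 higher, ARNTL, in each of the BA intima, BA media and BT media, where it called 0.833%, 4.11% and 3.73% of all genes higher. At an unadjusted p under 0.05 they were 3, 3, 4 and 4, where 5.93%, 11.6%, 13.6% and 16.0% of all genes were.

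Whether the change with ligation differed between layers or locations was tested for the comparators in the fit over 16 libraries. None passed, and the smallest q of a comparator in these interactions was 0.908 by edgeR. Groups without a count left 3 of these interactions unable to be judged. They were ARNTL by location in the media (SE 1135.38), and PER2 by layer in the BT (SE 912.62) and by location in the intima (SE 1883.86). No gene of the 10091 passed any of the 4 interactions (0%), with 318 (BA) and 540 (BT) genes at an unadjusted p under 0.05 for layer and 406 (intima) and 457 (media) for location. DESeq2 called 4 and 59 genes for layer and 49 and 4 for location. Passing the threshold in the media and missing it in the intima therefore does not set the layers apart for NR1D2 or TEF.

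A wider list of clock genes and clock modifiers held 17 of its 20 members in the matrix, of which 15, 15, 15 and 14 were tested in the 4 tissues. By edgeR it contained 1 call, in the BA media, for ARNTL2 (BMAL2), the paralogue of ARNTL that also pairs with CLOCK. ARNTL2 had no count in the sham BA media and 16.4 and 22.3 CPM (31 and 85 counts) in the ligated rabbits, at least 49.9-fold higher (q = 0.0472 by edgeR, where 0.431% of genes were called higher), with a bound of 39.3 to 68.2 when 1 library was left out. No left-out fit of the BA media called ARNTL2 (q = 0.174 to 0.613 by edgeR), as for nearly all genes there. DESeq2 called it higher in the BA media, BT intima and BT media (4.11%, 2.28% and 3.73% of genes). ARNTL2 was also without a count in the sham BT intima, against 14.3 and 19.9 CPM in the ligated rabbits (q = 0.248 by edgeR). That is at least 53.2-fold higher, with a bound of 38.8 to 84.4 when 1 library was left out. The sham BT media had no count of it either, against 4.68 and 11.1 CPM (at least 11.6-fold higher, 6.90-fold without rabbit 6, q = 0.107 by edgeR). The BA intima went the same way without separating as far, with 0 and 4.70 CPM of ARNTL2 in sham and 5.12 and 6.51 CPM in ligated rabbits. The list's median log2 fold changes were 0.04, 0.51, 0.40 and -0.39.

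Of 14 genes known to be induced by glucocorticoids, hormones that set peripheral clocks and rise with surgical stress, 12 were in the matrix and none passed the test in any tissue by edgeR (11, 11, 12 and 11 tested, with 1, 4, 3 and 3 at an unadjusted p under 0.05, where 5.93%, 11.6%, 13.6% and 16.0% of all genes were). DESeq2 called 2 of them lower in the BT intima (ANGPTL4 and PER1, the latter also a clock gene here, where it called 4.92% of genes lower) and in the BA media 2 higher (PDK4 and SGK1, 4.11% of genes) and 1 lower (ZBTB16, 3.22%). Its median log2 fold changes were 0.06, -0.99, 0.01 and -0.21. Of 15 immediate early genes, which respond within minutes to handling or stretch, 11 were in the matrix and 9 were tested in each tissue. By edgeR 2 of the 9 were called lower in the BT media, where 1.18% of all genes were. The nuclear receptor NR4A1 held 140 and 136 CPM in sham and 26.8 and 31.2 CPM in ligated rabbits (log2 fold change -2.24, SE 0.41, q = 0.0153 by edgeR). The stress-response factor ATF3 held 58.9 and 73.3 CPM against 13.1 and 12 CPM (log2 fold change -2.39, SE 0.54, q = 0.0411 by edgeR). Neither call held without rabbit 5 (q = 0.123 and 0.192 by edgeR) or without rabbit 6 (q = 0.177 and 0.324 by edgeR). Median log2 fold changes of this list were -0.67, -1.14, -0.77 and -0.58, and no member was called by edgeR in the other 3 tissues, while DESeq2 also called 4 lower in the BT intima (ATF3, EGR2, JUN and NR4A1, where it called 4.92% of genes lower) and the same 2 in the BT media (4.07%).

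The genes whose profile was most like that of CIART were sought among 10090 others, by Pearson's r of log2(CPM + 0.5) over the 16 libraries. These points come from 4 rabbits and fall into a sham and a ligated cluster, so r mostly restates the flow contrast that chose CIART, and it is given as a description. The 5 highest were PTPDC1, a phosphatase (r = 0.914), TTC25, a dynein docking protein of cilia (0.884), ZBTB16, a glucocorticoid-induced zinc finger repressor (0.88), RF00322, a small RNA named by its family (0.879), and GLB1L, a beta-galactosidase-like protein (0.869). NR1D2 ranked 16th (r = 0.827), PER1 46th (0.785) and TEF 52nd (0.774), followed by NR1D1 (0.60) and CRY2 (0.53). At the other end stood ATP5PF, a subunit of ATP synthase (-0.885), CAPN2, a calpain (-0.884), and ARPC2, a subunit of the actin-branching Arp2/3 complex (-0.88). ARNTL2 (-0.867) was 7th from the bottom and ARNTL (-0.788) 58th.

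Within a flow group the values of r differed from gene to gene. Over the 8 sham libraries, r with CIART was -0.175 for NR1D2, 0.091 for TEF, -0.162 for ARNTL and 0.598 for PER1. Over the 8 ligated libraries it was 0.174, 0.134, -0.102 and 0.332. CRY1 (0.751), ARNTL2 (-0.673), ZBTB16 (0.625) and CLOCK (-0.476) had larger values in the ligated libraries and -0.111, -0.155, 0.178 and -0.0275 in the sham libraries. CRY2 had -0.454 in the sham and -0.136 in the ligated libraries. None of these values over 8 libraries of 2 rabbits is a tested relation.

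**Figure D4:**
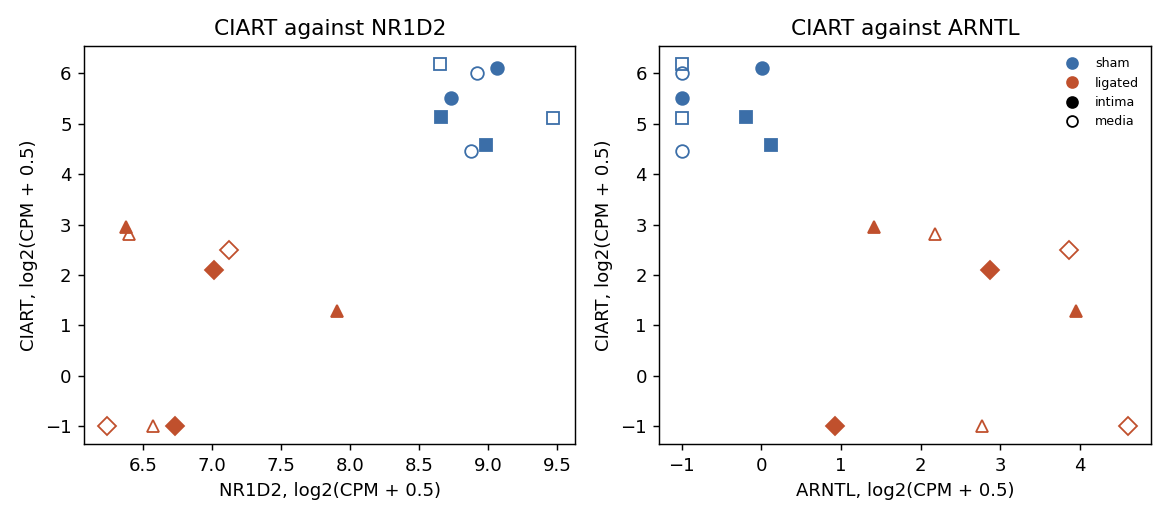
CIART against NR1D2 (left) and ARNTL (right), both axes in log2(CPM + 0.5), for the 16 libraries, sham in blue and ligated in red, intima filled and media open, with circles, squares, triangles and diamonds for rabbits 3, 4, 5 and 6. The libraries form a sham and a ligated cluster in both panels, within which r is -0.175 and 0.174 for NR1D2 and -0.162 and -0.102 for ARNTL.

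PTPDC1, the closest in profile, held 63.7 and 34.3 CPM in the sham BA media and 5.81 and 9.44 CPM in the ligated BA media. ZBTB16 held 30.1 and 32.0 CPM there in sham and 0 and 1.84 CPM in ligated rabbits. ATP5PF, the most opposed, held 140 and 124 CPM against 869 and 596 CPM in the BA media (fitted log2 fold change 2.50, SE 0.34), and its fitted log2 fold change in the BT media was 2.14 (SE 0.34). These genes were chosen by their likeness to CIART over the same libraries, which favours a difference by flow, so no test of it is given.

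By the gene order of the RefSeq table, the genes on either side of CIART, MRPS21 and C7H1orf54, were not analysed here. Next but 1 stood PRPF3, a splicing factor, and APH1A, a subunit of gamma-secretase. The differences of PRPF3 did not pass the test, with log2 fold changes of 0.19, -0.41, -0.30 and -0.13 in the 4 tissues (SE 0.35 to 0.51, smallest q 0.748 by edgeR). Those of APH1A did not pass either and were imprecise, at -1.42, -2.44, 0.05 and 4.18 (SE 1.87 to 2.78, smallest q 0.444 by edgeR).

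Markers of the wall's own cells were checked against the labels. Smooth muscle markers (7 of 9 in the matrix, led by ACTA2) summed to 11400 to 76800 CPM in intimal and 70500 to 121000 CPM in medial libraries, so the intimal strips held smooth muscle RNA. Endothelial markers (9 of 10 in the matrix) summed to 1220 to 5930 CPM in the intima and 462 to 1670 CPM in the media. In the BA media smooth muscle markers summed to 87700 and 79300 CPM in sham and 104000 and 121000 CPM in ligated rabbits, and in the BT media to 105000 and 77900 against 77100 and 70500 CPM, the opposite order. The groups overlapped in the intima, at 76800 and 36800 against 42900 and 46000 CPM in the BA and 20300 and 22000 against 11400 and 48200 CPM in the BT. Of the 7 smooth muscle markers, MYH11 and LMOD1 were called lower in the ligated BT media (q = 0.0214 and 0.0428 by edgeR, where 1.18% of genes were lower), which did not hold without rabbit 5 (q = 0.186 and 0.125 by edgeR) or rabbit 6 (q = 0.137 and 0.403 by edgeR), and no endothelial marker was called in any tissue by edgeR, while DESeq2 called 2 higher in the BT intima (CDH5 and TEK, where 2.28% of genes were). DESeq2 also called MYH11 and LMOD1 lower in the BT media (4.07% of genes) and MYH11 lower in the BA media (3.22%). Brain parenchymal markers (9 of 10 in the matrix) summed to at most 10.9 CPM.

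Leptomeningeal fibroblast markers, 8 of 9 in the matrix, had lower summed levels in both ligated than in both sham libraries in 3 tissues and overlapped in the BA intima. By their fitted change 6, 8, 8 and 7 of the 8 were lower in the 4 tissues. The median log2 fold change over all genes was -0.10, -0.13, -0.14 and 0.03, and the share of all genes that were lower was not counted. In the BA media they summed to 34400 and 26100 CPM in sham and 6610 and 6420 CPM in ligated rabbits, and in the BT media to 15500 and 19500 against 5830 and 7510 CPM. The BT intima gave 19600 and 5790 against 585 and 1170 CPM, and the BA intima 14100 and 3530 against 4830 and 1090 CPM. The most abundant of them was APOD in the sham BA media, OGN in the other sham libraries and in the ligated BA media, and DCN or COL1A2 in the other ligated libraries. LUM had no count in either ligated BA intima library, SLC6A13 none in either ligated BT media library or in the BT intima of ligated rabbit 6, and DCN, LUM, PDGFRA, SLC6A13 and APOD had none in the BT intima of ligated rabbit 5. Of the sham libraries, the BA intima of rabbit 4 held no count of PDGFRA or SLC6A13 and the BA media of rabbit 3 none of SLC6A13. In the BA media 4 of 8 were called lower (APOD, OGN, COL1A2 and DCN, where 0.374% of genes were), in the BT media 1 of 8 (OGN, 1.18%), and in the intima none, by edgeR, with 2 (BA) and 5 (BT) of 8 there at an unadjusted p under 0.05, where 5.93% and 11.6% of all genes were. DESeq2 called 6 of 8 lower in the BA media (3.22% of genes), 2 in the BT media (4.07%), 1 in the intima of the BA (0.707%) and 3 in that of the BT (4.92%). With 1 library left out, the BA media calls were lost, as for nearly all genes there (q = 0.0983 to 0.613 by edgeR), and that of OGN in the BT media was lost without rabbit 6 (q = 0.0503 by edgeR). The part of these cells in the CIART and clock gene values was not tested.

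Macrophage markers, 8 of 8 in the matrix, summed to 1090 and 136 CPM in the sham BT intima and 121 and 56.6 CPM in the ligated BT intima. They gave 494 and 77.0 against 203 and 104 CPM in the BA intima and 323 and 245 against 159 and 51.7 CPM in the BA media. In the BT media they were 90.6 and 67.2 CPM in sham and 101 and 165 CPM in ligated rabbits. By edgeR no macrophage marker was called in any tissue, with 0, 5, 2 and 1 at an unadjusted p under 0.05 in the 4 tissues, where 5.93%, 11.6%, 13.6% and 16.0% of all genes were. DESeq2 called 4 lower in the BT intima (C1QA, C1QC, MRC1 and TYROBP, where 4.92% of genes were) and 2 in the BA media (AIF1 and TYROBP, 3.22%). Their part in the CIART values was not tested either. In the BT intima of ligated rabbit 5, CD14 was the only one of them with a count. Haemoglobin genes, a measure of blood left in the vessel, took 0.000151% to 13.2% of the named counts, the most in the BT intima and BA intima of sham rabbit 4 (13.2% and 9.67%). With these genes left out, the fitted log2 fold change of CIART was -4.20 for the BA intima and -3.23 for the BT intima.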

How the data were processed

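The authors turned the RNA into cDNA with SMART-Seq v4 and into libraries with Nextera, read them from 1 end on a NextSeq500, and, per the labels, used bcl2fastq 2.20.0.422, FastQC 0.11.5, MultiQC 1.5, STAR, SAMtools 1.9 and featureCounts 1.6.2 with OryCun2.0. The deposited values are raw counts of uniquely mapped reads per gene symbol. The kit does not mark strand, so a gene and an antisense partner cannot be told apart. The paper gives a strand-specific setting for featureCounts, whose effect on these counts was not tested. The 1 entry without a symbol (13.8% to 18.7% of counts) was left out of totals and tests. All 16 sample columns were used.

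Ligated and sham libraries, 2 against 2, were compared in each tissue with edgeR 4.0.16 in R 4.3.3 (TMM, quasi-likelihood F test in its older form, legacy = TRUE), for genes with a mean above 1 CPM in at least 1 group. Q-values are Benjamini-Hochberg adjusted over all genes tested, with a threshold of 0.05. Layer, location and interactions used 1 fit of 8 groups over 16 libraries. Different rabbits were ligated and sham, so p-values of the ligation comparisons in each tissue measure the spread between 2 animals of a group. Those of the 16-library fit pool the spread over 8 groups and take libraries of the same rabbit as independent. Standard errors are on the log2 scale. Layers and locations came from the same rabbits by the labels, and the correlation of same-rabbit deviations from the group means was -0.032 to 0.357, so rabbit was also fitted as a block. The levels in log2(CPM + 0.5) served for likeness. A fold against a group without counts used 3 counts per library.

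In data simulated from these libraries, with 200 genes changed by 3 on the log2 scale, the test found 28.5%, 26.0%, 50.0% and 52.5% of them in the intima of the BA and BT and the media of the BA and BT, and 6 of 63, 7 of 59, 10 of 110 and 9 of 114 calls were false, a larger share than the threshold. RefSeq gene symbols matched 12478 of 13788 names and 10 of the clock comparators. Its build differs from that of the counts, so it was used for names and gene order only, and no sequence is printed. Named genes were CIART, the comparators, list members past q 0.05 by edgeR (at most 3 for each comparison), and the 5 highest and 3 lowest in likeness; CIART's neighbours, ZBTB16 and PTPDC1 levels, MYH11, LMOD1, marker genes, list members called by DESeq2 and ALX4 were named after their values were seen. The members and lists were chosen with earlier results of these data known. Alternatives tried were library size scaling, RLE, no filter, filterByExpr, DESeq2 1.42.0, edgeR's version 4 form, fits over a layer or 16 libraries, the rabbit block and leaving out each rabbit, and, after the data were seen, haemoglobin genes left out and sham rabbits alone.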

Additional observations from a re-analysis of the deposited data

How the results depend on the processing

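CIART was lower after ligation in all 4 tissues under every alternative run. By the ratio of means with 1 rabbit left out, its size moved most in the BT intima (log2 ratio -3.25, range -7.12 to -2.25). Counts of genes past q 0.05 varied more. In the BA intima (0), they were 123 without a filter, 122 by DESeq2, 3 in edgeR's version 4 form, 13 in the 16-library fit, and 0 to 122 with 1 rabbit left out (82 without rabbit 3, 122 without rabbit 4). In the BT intima (0) they were 346, 616 and 79 without a filter, by DESeq2 and in the 16-library fit, and 0 to 113 with 1 rabbit left out (113 without rabbit 4). In the BA media (71) they were 507 without a filter, 41 by filterByExpr, 508 by DESeq2, 7 in the version 4 form, 228 in the fit over the layer, 38 in the 16-library fit, and 0 to 2 with 1 rabbit left out. In the BT media (206) they were 557, 594 and 20 without a filter, by DESeq2 and in the 16-library fit, and 13 to 641 with 1 rabbit left out (13 without rabbit 6). The cause was not tested.

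Of the clock genes, CLOCK in the BA media (0.04) reversed to -0.11 with library size alone, -0.01 in the version 4 form, and -0.12 and -0.25 without rabbits 3 and 5 (range -0.25 to 0.27 with 1 rabbit left out). PER1 in the BT media ranged from -0.74 to 0.10 and NR1D1 there from -1.65 to 0.70, both reversed without rabbit 4. NR1D2 in the BA media also missed the threshold in the version 4 form (q = 0.0741 by edgeR) and TEF in the BT media in the 16-library fit (q = 0.208 by edgeR). By DESeq2, NR1D2 in the BT intima (q = 7.19e-07), PER1 there (q = 0.0293), TEF in the BA media (q = 0.000242), and ARNTL in the BA intima, BA media and BT media (q = 0.0424, 0.000201 and 0.00925) passed it. RLE scaling, filterByExpr and leaving out haemoglobin genes changed no clock gene call.

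The flow comparison could not be paired, since different rabbits were ligated and sham. With rabbit as a replicate block, genes past q 0.05 for layer were 906 (721 without it) and for location 0 (1 without it), and no clock gene call changed. Layer counts were 1221 without a filter, 1333 by DESeq2, 49 in sham rabbits alone and 194 to 668 with 1 rabbit left out (370, 253 and 194 without rabbits 4, 5 and 6); location counts were 124, 29 and 0, with 2 in the version 4 form and 0 with any rabbit left out. The fitted log2 difference of CIART includes the ligated BA media, which held no count, and the cause of its reversals was not tested. For layer (1.70; -0.14 to 2.02 with 1 rabbit left out) it reversed to -0.14 without rabbit 5 and -0.05 in sham rabbits alone, and for location (1.78; -0.35 to 2.23) to -0.35 and -0.93. Of the 5 genes most like CIART, 2 stayed among the 5 highest by Spearman, 3 with a pseudocount of 2 CPM, and 0 in the 8 medial or 8 intimal libraries alone. Counts were low for most clock genes, which limits their comparison. All 16 libraries held under 100 counts of PER2, HLF and NPAS2, and 15 did of PER1. The number was 14 for ARNTL, 11 for CRY1, and 9 each for CIART, NR1D1 and CLOCK.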
